A study of Mus musculus with 74 samples.

Results

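The mouse Cyp2c genes described here are Cyp2c29, Cyp2c37, Cyp2c38, Cyp2c40, Cyp2c44, Cyp2c50, Cyp2c54, Cyp2c68, Cyp2c69 and Cyp2c70, 10 of the 14583 genes listed in the RNA-seq table. They were followed as symbols in the RNA-seq table and as the gene assigned to a peak in every ChIP-seq table, which gave between 19 and 77 peaks per table. Cyp2c44 appears under the name Cyp2c23 in some of the tables and was matched there by its Entrez identifier. The genes were picked with the mRNA contrast between Gps2 LKO and WT livers in view, so their mRNA values are a description without a test.

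The series holds 74 mouse liver libraries. RNA-seq made up 8 of them and ChIP-seq 64, and the 2 input libraries were not used. All groups were C57BL/6 mice of 8 to 12 weeks on a chow diet. The names of the histone mark libraries of the Gps2 line also give the fed state. Gps2 LKO mice carried floxed Gps2 alleles with an albumin-driven Cre, which acts in hepatocytes, and their WT controls were floxed mice from the same breedings. Ncor LKO and Smrt LKO mice lack the corepressor in the liver only, each line with its own WT group, and Ppara KO mice lack the receptor in the whole body (B6;129S4 stock) and have their own WT group. The comparisons ask how the loss of a corepressor subunit, or of the receptor, alters mRNA, chromatin marks and occupancy at these genes. ChIP-seq of GPS2, NCOR, PPARα and Pol II used chromatin cross-linked with DSG and formaldehyde. For the histone marks the sources differ, since the labels give the same cross-linking and the methods give formaldehyde alone. Several immunoprecipitations were pooled into 1 library. The compared groups held 4 against 4 libraries for RNA-seq, 2 against 2 for the histone marks of the Gps2 line and for PPARα in the Ppara line, 3 against 3 for the other replicated comparisons (where PPARα in the Gps2 line had its 3 WT libraries counted as 1 sample), and 1 against 1 for GPS2 and Pol II in the Gps2 line.

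Cyp2c enzymes are cytochrome P450 monooxygenases of the endoplasmic reticulum. Several of them add oxygen to arachidonic acid and make epoxyeicosatrienoic acids, signalling lipids that epoxide hydrolases then convert to diols, while the reductase POR supplies the electrons. In mouse liver the family is known to respond to the nuclear receptors CAR and PXR and to the pattern of growth hormone release, and Cyp2c40 and Cyp2c69 are known as more abundant in females than in males. GPS2, NCOR and SMRT are subunits of one corepressor complex that brings a histone deacetylase to nuclear receptors such as PPARα. H3K27ac marks active enhancers and promoters, and H3K4me3 marks active promoters.

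RNA-seq depth was about 13200000 to 20100000 counted reads per library, and ChIP-seq depth was about 7900000 to 46100000 tags. Gps2 mRNA, the targeted transcript, stood at 16.4, 15.8, 16.7 and 15.1 CPM (counts scaled to library size) in the WT and at 12.7, 9.86, 9.16 and 12.9 CPM in the LKO libraries. GPS2 ChIP tags inside peaks made up 7.07% of the WT and 0.31% of the LKO library. Hepatocyte markers were abundant, with 7 of 7 listed markers measured and a sum of 114000 to 118000 CPM in WT liver. The methods state that male mice were used, but the 6 H3K27ac libraries of the Smrt line held 0 tags on the 5 Y-chromosome peaks and 249 to 289 tags per 10000000 on the Xist peak. In the Ncor line the same Y-chromosome peaks held 306 to 371 and the Xist peak 2.93 to 4.92 tags per 10000000, and the Gps2 line held 428 to 471 H3K27ac tags per 10000000 on its 6 Y-chromosome peaks. Wherever the Smrt line is compared with the Ncor line, the line and this sex-linked difference cannot be told apart.

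In mm9, 9 of the genes lie in one stretch of chromosome 19, where Cyp2c39 and Cyp2c67, outside the list, stand between Cyp2c38 and Cyp2c68. The plus-strand genes are Cyp2c29 (chr19:39315441-39405189), Cyp2c37 (chr19:40066909-40086738) and Cyp2c50 (chr19:40164178-40188440). The minus-strand genes are Cyp2c38 (chr19:39464046-39537565), Cyp2c68 (chr19:39763324-39815544), Cyp2c40 (chr19:39841561-39887304), Cyp2c69 (chr19:39917150-39961259), Cyp2c54 (chr19:40112431-40148301) and Cyp2c70 (chr19:40227843-40261823). Cyp2c44 lies apart at chr19:44079512-44103737 on the minus strand. These are the outer limits of the genes in GENCODE vM1. Cyp2c29 has a long annotated transcript that begins 46134 bp upstream of the start site at 39361575 that the ChIP-seq tables count from, and for the other genes both start sites lie within 47 bp of each other. Distances and annotations of peaks are those of the tables. The coding sequences are close to each other, with 98.1% identity between Cyp2c40 and Cyp2c68, 97.9% between Cyp2c69 and Cyp2c40, 96.1% between Cyp2c37 and Cyp2c50, 95.2% between Cyp2c54 and Cyp2c50, and 94.2% between Cyp2c38 and Cyp2c39. Reads and tags of such near-identical copies can be split between them or lost, so the values of these genes are uncertain where single copies are compared. Cyp2c29 is 89.5% identical to Cyp2c39, Cyp2c70 75.6% to Cyp2c40 and Cyp2c44 72.3% to Cyp2c37.

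The likeness reaches into the promoters. The 150 bases (149 for Cyp2c68) shown here lie upstream of 4 neighbouring minus-strand genes and are given because Cyp2c40 and Cyp2c69, with the lowest mRNA levels per kilobase in WT liver and the highest fold in Gps2 LKO liver among the 10 genes, are set beside Cyp2c68 and beside Cyp2c67, a gene outside the list. They are RefSeq sequences of GRCm38.p6, read 5′ to 3′ on the minus strand, at chr19:39812815-39812964 for Cyp2c40, chr19:39886800-39886949 for Cyp2c69, chr19:39741136-39741284 for Cyp2c68 and chr19:39649123-39649272 for Cyp2c67. Capitals mark mismatches to Cyp2c40 in the aligned stretch, and a base inserted at a gap is left in lower case.
Cyp2c40: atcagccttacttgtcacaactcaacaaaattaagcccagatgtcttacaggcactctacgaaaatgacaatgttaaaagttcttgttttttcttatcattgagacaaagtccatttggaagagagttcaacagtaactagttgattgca
Cyp2c69: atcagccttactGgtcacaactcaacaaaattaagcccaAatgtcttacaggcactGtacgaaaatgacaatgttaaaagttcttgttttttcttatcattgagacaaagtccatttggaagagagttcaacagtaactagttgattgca
Cyp2c68: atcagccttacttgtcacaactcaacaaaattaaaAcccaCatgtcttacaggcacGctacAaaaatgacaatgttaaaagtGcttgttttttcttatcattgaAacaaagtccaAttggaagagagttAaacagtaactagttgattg
Cyp2c67: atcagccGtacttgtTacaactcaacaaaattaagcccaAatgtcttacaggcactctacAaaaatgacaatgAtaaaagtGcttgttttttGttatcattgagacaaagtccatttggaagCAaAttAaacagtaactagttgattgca

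Against Cyp2c40, the stretch of Cyp2c69 has 3 mismatches (98.0% identity), that of Cyp2c68 has 8 mismatches and 1 gap (94.0%), and that of Cyp2c67 has 11 mismatches (92.7%). The RefSeq promoter table has an entry for 8 of the 10 genes and none for Cyp2c54 and Cyp2c44. In windows of 300 bases (250 before and 50 after the start site), the nuclear receptor half-site AGGTCA, searched on both strands, was in the promoters of Cyp2c29 and Cyp2c70, 2 of 8, and in 16.3% of 32851 promoters. The letters TTCNNNGAA, a STAT5-type motif, were in 0 of the 8 promoters and in 8.3% of all.

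In Gps2 LKO liver, mRNA of all 10 genes stood above WT, between 1.22-fold for Cyp2c44 and 23.8-fold for Cyp2c69, and no LKO library overlapped the WT range for any of them. Over all genes tested, 23.4% of 12220 were called higher and 21.4% lower at an adjusted p below 0.05, with a median log2 fold change of 0.03. Since the genes were chosen from this contrast, nothing is read from their count or from the lack of overlap. Values are TMM-normalised CPM, n = 4 libraries per group.

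Cyp2c69 and Cyp2c40 were the pair with the widest distance between groups. Cyp2c69 stood at 3.72, 4.04, 3.55 and 3.82 CPM in WT and at 100, 85.4, 68.1 and 108 CPM in LKO libraries (log2 fold change 4.58). Cyp2c40, which hydroxylates arachidonic acid, stood at 8.18, 8.49, 7.74 and 8.47 CPM in WT and at 182, 143, 129 and 185 CPM in LKO libraries (log2 fold change 4.28, 19.4-fold). For both genes the third LKO library was the lowest of its group, and it still lay far above the WT libraries, which differed little from each other. Over 15 alternative settings the log2 fold change ran from 4.41 to 4.69 for Cyp2c69 and from 4.12 to 4.37 for Cyp2c40.

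Cyp2c38, an arachidonic acid epoxygenase, held 15.2, 15.9, 13.8 and 14.8 CPM in WT and 48.5, 52.1, 42.5 and 54.1 CPM in LKO libraries (log2 fold change 1.72, SE 0.0898). Cyp2c68 held 112, 110, 113 and 123 CPM in WT and 340, 272, 290 and 336 CPM in LKO libraries (log2 fold change 1.43). Cyp2c54, which epoxidizes arachidonic and linoleic acid, held 94.1, 98.6, 95.9 and 96.5 CPM in WT and 257, 241, 209 and 265 CPM in LKO libraries (log2 fold change 1.33). In these 3 genes, too, the groups lay well apart and the LKO libraries spread more widely than the WT libraries. Cyp2c29, a major hepatic epoxygenase, held 901, 912, 936 and 934 CPM in WT and 2250, 2190, 1970 and 2260 CPM in LKO libraries (log2 fold change 1.24, SE 0.0578, 2.35-fold). Its share of the summed CPM of the 10 genes was 32.8% to 33.6% in WT and 40% to 41.7% in LKO libraries.

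Cyp2c37, an arachidonic acid hydroxylase, had a log2 fold change of 0.98, from 86.2, 84.7, 87.6 and 92.6 CPM in WT to 189, 163, 154 and 188 CPM in LKO libraries. Cyp2c50, an epoxygenase close in sequence to Cyp2c54, had one of 0.71, from 398, 405, 404 and 414 CPM to 717, 643, 575 and 718 CPM. The smallest differences were those of the 2 members most distant in sequence. Cyp2c70, which makes muricholic acids from other bile acids and is not chiefly known as an epoxygenase, went from 593, 574, 585 and 602 CPM to 887, 752, 771 and 875 CPM (log2 fold change 0.48). Cyp2c44, an epoxygenase of liver and kidney, went from 532, 532, 542 and 513 CPM to 660, 709, 562 and 654 CPM (log2 fold change 0.29), and its lowest LKO library was 1.04 times its highest WT library.

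**Figure D1:**
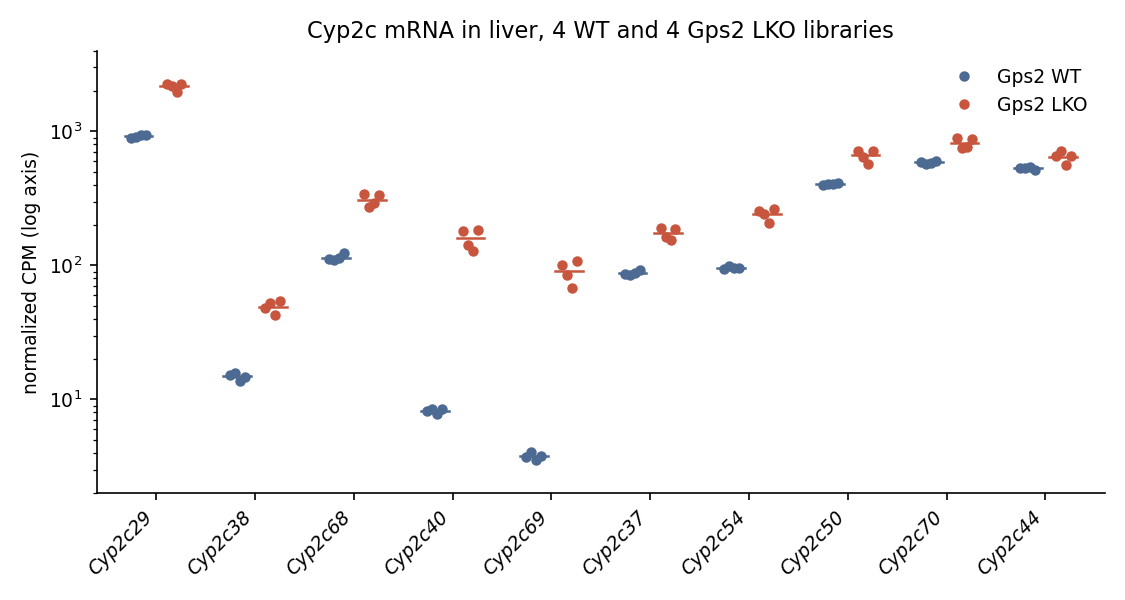
TMM-normalised CPM (log axis) of the 10 Cyp2c genes in 4 WT and 4 Gps2 LKO liver libraries; each point is a library and each line a group mean. Cyp2c40 and Cyp2c69 move from below 10 CPM to between 68.1 and 185 CPM, whereas the Cyp2c44 and Cyp2c70 groups lie close together.

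Per kilobase of exon, the order of mean levels in WT liver was Cyp2c29 (516 CPM per kb), Cyp2c70 (344), Cyp2c44 (241), Cyp2c50 (138), Cyp2c68 (64.8), Cyp2c54 (54.3), Cyp2c37 (48.1), Cyp2c38 (5.2), Cyp2c40 (4.56) and Cyp2c69 (2.14), and no neighbours in that order overlapped between libraries. In LKO liver the levels were 1210 CPM per kb for Cyp2c29, 480 for Cyp2c70, 294 for Cyp2c44, 226 for Cyp2c50, 175 for Cyp2c68, 137 for Cyp2c54, 95.2 for Cyp2c37, 88.7 for Cyp2c40, 51.1 for Cyp2c69 and 17.2 for Cyp2c38. Cyp2c40 and Cyp2c69 thus passed Cyp2c38, and Cyp2c37 and Cyp2c40 were the neighbours whose library ranges overlapped. The 10 genes together took 0.292% to 0.298% of counted reads in WT and 0.447% to 0.52% in LKO libraries.

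Among the 5 genes outside the list whose log2 CPM followed the mean of the 10 most closely over the 8 libraries were Gls2 (Pearson r 0.998), Dcn (0.997) and Pnpla5 (0.995). The 8 libraries fall into 2 groups, so these coefficients mainly describe the step between the groups. Dcn, a proteoglycan of stellate cells and fibroblasts, is not a hepatocyte gene and rose from a mean of 75.6 to 137 CPM. All of the 6 stellate cell markers listed rose, from a sum of 140 to 145 CPM in WT to 251 to 267 CPM in LKO libraries (median log2 fold change 0.81). Of the Kupffer cell markers 6 of 7 rose (135 to 139 against 176 to 205 CPM), of the endothelial markers 3 of 6 (119 to 125 against 134 to 145 CPM), of the cholangiocyte markers 3 of 5 tested (65 to 69.2 against 91.5 to 112 CPM) and of the lymphocyte markers the 1 that was tested of 6. Of the hepatocyte markers 3 of 7 rose and 1 fell (150000 to 175000 CPM in LKO), of the pericentral markers 4 of 10 rose and 2 fell, and of the periportal markers 6 of 10 rose and 2 fell. No listed marker was at 0 in all 8 libraries, and the part of these shifts in the Cyp2c values was not tested. In bulk liver, fewer cells of a type and less RNA per cell cannot be told apart.

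Genes that act with the Cyp2c enzymes moved unevenly. Por, the electron donor of microsomal P450s, rose from a mean of 530 to 794 CPM (log2 fold change 0.58) and the cytochrome b5 reductase Cyb5r3 rose (0.49), while Cyb5b fell by 0.22 and Cyb5a did not pass the test (-0.02). Both measured epoxide hydrolases fell, Ephx1 by 0.56 on the log2 scale (450 to 305 CPM) and Ephx2, which hydrolyses epoxyeicosatrienoic acids, by 0.21 (742 to 640 CPM). Of the Cyp2j epoxygenases 2 of 3 tested fell, Cyp2j5 by 0.20 and Cyp2j6 by 0.19, and Cyp2j9 (-0.11) did not pass the test. Among 6 phospholipases that release arachidonic acid, Pla2g4a rose (0.99) and Pla2g6 and Pla2g12a fell by 0.28 and 0.35. Of the other Cyp2c genes of the locus, 4 of 6 were measured. Cyp2c39 rose (0.68) at a mean of 1.37 to 2.22 CPM, Cyp2c67 fell by 0.62 (197 to 128 CPM), and Cyp2c55 (0.19) and the pseudogene Cyp2c53-ps (0.05) did not pass the test. Cyp2c67 thus stood lower in LKO liver while Cyp2c40, Cyp2c68 and Cyp2c69, with the similar upstream sequences printed above, stood higher. The coding sequence of Cyp2c67 is 97.7% identical to those of Cyp2c40 and Cyp2c69 and 97.2% to that of Cyp2c68. Reads may therefore have been assigned to the wrong copy. At the Cyp2c67 peak at +2231 bp, neither H3K27ac (log2 fold change 0.32) nor H3K4me3 (0.78) passed the test in Gps2 LKO liver.

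Of 13 regulators listed for Cyp2c genes 5 rose and 4 fell, with a median log2 fold change of 0.05. The receptors CAR (Nr1i3, 0.47) and PXR (Nr1i2, 0.26) rose, as did Foxa2 (0.75) and Cebpa (0.53). Hnf4a fell by 0.41, Ppara by 0.39 with overlapping groups and Rxra by 0.26. Of 11 tested CAR and PXR target genes outside Cyp2c, 7 rose and 2 fell, among them Cyp2b9 (8.74), Gadd45b (1.38) and Gstm3 (1.21), and Abcc2 and Gsta2, which fell by 0.82 and 0.59.

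In the growth hormone axis, Cux2, a factor known from female liver, rose from 0.119 to 0.637 CPM in WT to 11.4 to 19.2 CPM in LKO libraries (log2 fold change 5.49). The feedback inhibitors Socs2 (1.19) and Cish (1.16) rose, and Bcl6, a repressor known from male liver, fell by 1.85, Stat5a by 0.61, the receptor Ghr by 0.51 and Stat5b by 0.34. All 10 tested female-biased liver genes outside Cyp2c, of 16 listed, rose, with a median log2 fold change of 4.36 and a sum of 52.4 to 60.9 CPM in WT against 1330 to 1570 CPM in LKO libraries. Of the 13 tested male-biased genes 12 fell, with a median of -1.08 and a sum of 22100 to 22700 against 12800 to 15700 CPM, and Mup20 (0.05) did not pass the test. Of the female-biased genes Cyp2a4 (8.51) and Hao2 (6.6) rose, and of the male-biased genes Selenbp2, Elovl3 and Cyp7b1 fell by 2.71, 2.68 and 2.64. Of 4 tested sex-linked genes 0 rose and 2 fell, with a median log2 fold change of -0.11. The 5 listed sex-linked genes summed to 169 to 186 CPM in WT and 173 to 189 CPM in LKO libraries. Cyp2b9, Cyp3a44, Cux2 and Por stand in 2 of these lists each.

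H3K27ac rose at the peak nearest to the start site of 7 Cyp2c genes in Gps2 LKO liver, and H3K4me3 at 5 of these. Cyp2c29, Cyp2c38, Cyp2c54 and Cyp2c37 gained about as much of either mark, Cyp2c50 gained less, and the groups at Cyp2c70 overlapped. Values are tags per 10000000 of the library total, n = 2 per group. Of 55 peaks assigned to the 10 genes, 20 were in the H3K27ac peak list of at least 2 of the 4 libraries and were tested, and 8 were higher (40%) and 0 lower, beside 1.21% higher and 0.212% lower of 47108 peaks in all. Since LKO lists alone could admit a peak, this count and the one for H3K4me3 are descriptions.

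At the Cyp2c29 peak (chr19:39356298-39368451 in mm9) H3K27ac was 279 and 286 in WT, against 697 and 671 in LKO libraries (log2 fold change 1.27, SE 0.0806, edgeR adjusted p = 0.00252). H3K4me3 in the same region was 344 and 373 in WT, against 843 and 771 in LKO libraries (1.17, edgeR adjusted p = 4.88e-06). Both marks were above WT in every LKO library. At Cyp2c38 (chr19:39532623-39539382) H3K27ac was 106 and 143 against 297 and 322 (1.31, edgeR adjusted p = 0.0108), and H3K4me3 was 107 and 167 against 348 and 408 (1.47, edgeR adjusted p = 0.000778). At Cyp2c54 (chr19:40144060-40151098) H3K27ac was 97.5 and 103 against 225 and 237 (1.2, edgeR adjusted p = 0.00662), and H3K4me3 was 100 and 82.1 against 269 and 192 (1.33, edgeR adjusted p = 0.00349). No group overlapped at these promoters.

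At Cyp2c37 (chr19:40063235-40070398) H3K27ac was 77.9 and 92.6 in WT and 196 in both LKO libraries (1.2, edgeR adjusted p = 0.00932), and H3K4me3 was 60.6 in both WT and 137 and 130 in LKO libraries (1.14, edgeR adjusted p = 0.0089). At Cyp2c50 (chr19:40160334-40167088) H3K27ac was 180 and 161 against 324 and 310 (0.89, edgeR adjusted p = 0.0108), and H3K4me3 was 134 and 121 against 238 and 197 (0.77, edgeR adjusted p = 0.0329). Cyp2c68 (chr19:39813393-39816876) gained H3K27ac, from 87.1 and 91.2 to 210 and 148 (1, edgeR adjusted p = 0.0384), while its H3K4me3, 52.3 and 98.4 against 159 and 129, did not pass the test (0.95, edgeR adjusted p = 0.148). A second Cyp2c68 peak, intergenic at -11265 bp, also gained H3K27ac, from 32 and 29.6 to 86.2 and 58.1 (1.22, edgeR adjusted p = 0.0453).

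Cyp2c40 and Cyp2c69, with the widest mRNA differences, had the lowest marks of the 10 genes in both groups. At the Cyp2c40 promoter peak (chr19:39885766-39888151) H3K27ac was 6.4 and 8.85 in WT, against 48.9 and 26.5 in LKO libraries (2.28, SE 0.363, edgeR adjusted p = 0.0312). LKO lists alone could have admitted this peak, low in WT, so its p-value is a description. H3K4me3 there, not tested, was 0.594 and 3.91 against 26.3 and 7.98. At the Cyp2c69 peak (chr19:39960110-39961204), tested for neither mark, H3K27ac was 2 and 3.4 against 19.2 and 5.43, and H3K4me3 was 1.78 and 0.652 against 16.3 and 4.26. The first LKO library was the higher one in all 4 of these values, and the groups did not overlap.

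The start site peaks of Cyp2c70 and Cyp2c44, like that of Cyp2c38, lie more than 1000 bp from the start site by their centres and were taken up after their values were seen. Cyp2c70 (chr19:40257159-40263396) held 464 and 379 H3K27ac tags in WT and 635 and 426 in LKO libraries, with overlapping groups (0.33, edgeR adjusted p = 0.461), and its H3K4me3 was 482 and 341 against 599 and 466 (0.37, edgeR adjusted p = 0.419). Cyp2c44 (chr19:44092614-44105783) held 540 and 547 H3K27ac tags against 625 and 681 (0.26, edgeR adjusted p = 0.181), and its H3K4me3 was 401 in both WT and 471 and 408 in LKO libraries (0.13, edgeR adjusted p = 0.8). These are the 2 genes with the smallest mRNA differences. Of the 9 peaks tested for H3K4me3 5 were higher (55.6%) and 0 lower, beside 0.798% higher and 0.118% lower of 22814 peaks, and 46 were not tested. Without the first or without the second WT library, 0 peaks of the 10 genes were called for H3K27ac, although at the 8 called peaks the lowest log2 fold change over the alternatives was 0.73. Under TMM scaling the calls at Cyp2c40 (edgeR adjusted p = 0.0504) and at both Cyp2c68 peaks (0.0592 and 0.0651) were lost. Without the second WT library 3 peaks were called for H3K4me3, at Cyp2c29, Cyp2c38 and Cyp2c68.

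**Figure D2:**
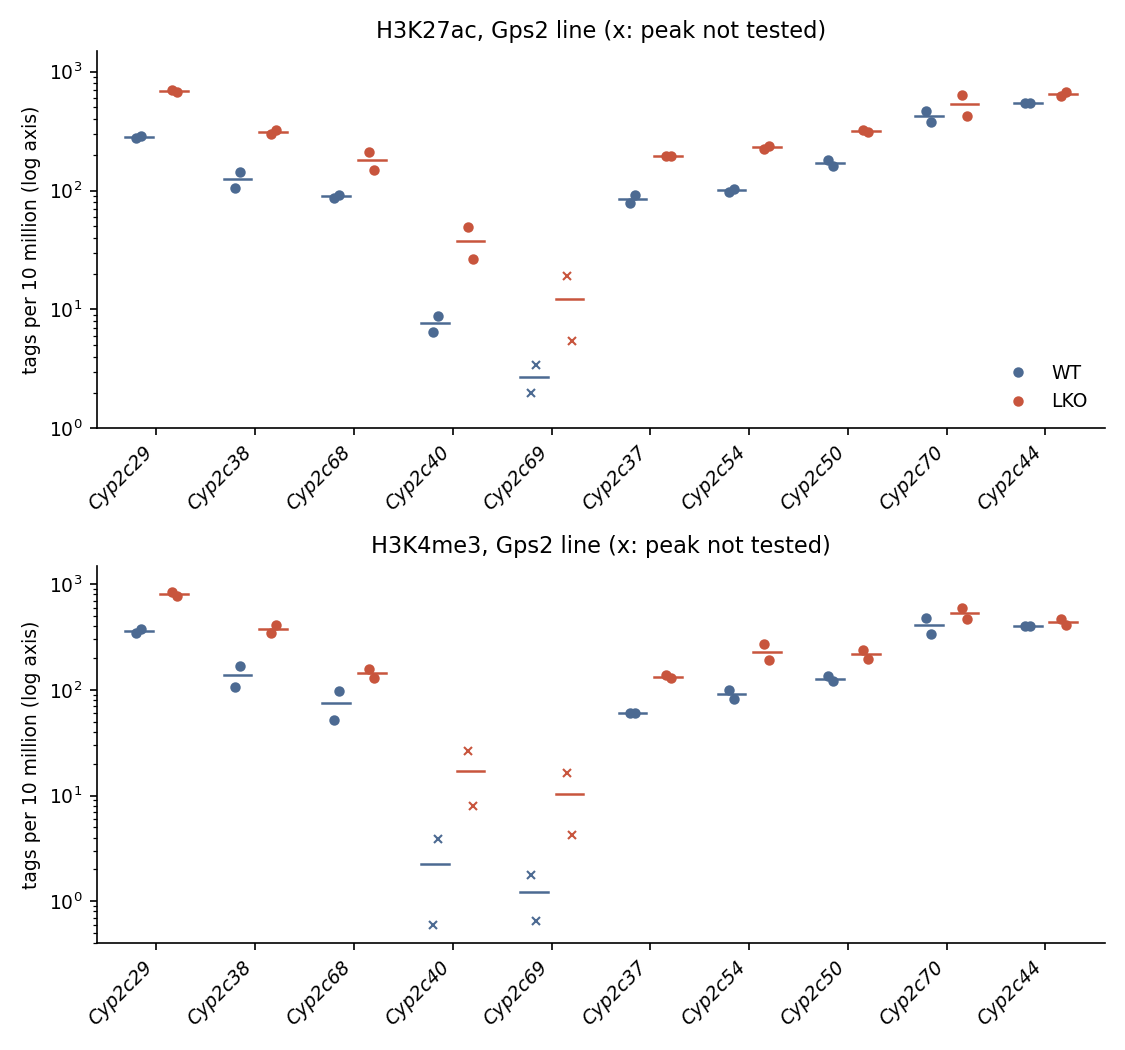
H3K27ac (top) and H3K4me3 (bottom) at the peak at each start site in 2 WT and 2 Gps2 LKO libraries, in tags per 10000000 on a log axis; each point is a library, crosses are peaks that were not tested and lines are group means. The LKO to WT fold runs from 1.7 to 2.77 over both marks at Cyp2c29, Cyp2c38, Cyp2c37, Cyp2c54 and Cyp2c50, and Cyp2c40 and Cyp2c69 sit far below the other genes.

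Pol II in the Gps2 line was measured in 1 WT and 1 LKO library, so there is no test of the condition and the intervals (exact Poisson, 95%) cover counting error only. At the start sites Pol II did not follow the mRNA in a uniform way. Of 31 peaks assigned to the 10 genes, 8 were at least 2-fold higher and 6 at least 2-fold lower in LKO with at least 10 tags in both libraries together, beside 7.45% higher and 5.7% lower of 31242 peaks. Higher peaks were found at Cyp2c40 and Cyp2c69. The Cyp2c40 start site peak held 5 tags in WT and 15 in LKO (4.29, interval 1.39 to 10, against 12.6, interval 7.06 to 20.8, per 10000000), and a peak at +948 bp held 2 and 24 tags (1.72, interval 0.208 to 6.2, against 20.2, interval 12.9 to 30). The Cyp2c69 start site peak held 0 and 17 tags, at least 5.55-fold higher against a floor of 3 tags, and a peak at +976 bp held 1 and 11 tags. These peaks rest on few tags in WT.

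At the Cyp2c54 start site Pol II was 54.9 per 10000000 in WT (interval 42.3 to 70.1) and 20.2 in LKO (12.9 to 30), 2.72-fold lower. At Cyp2c50 it was 59.2 (46.1 to 74.9) and 23.5 (15.6 to 34), 2.51-fold lower. Both genes thus had less Pol II at the start site in a library of the group with more mRNA. Cyp2c29 held 156 (134 to 181) and 94.2 (77.5 to 113), and its intervals did not overlap either. The intervals of Cyp2c44 (121, 102 to 143, and 91.7, 75.3 to 111), Cyp2c37 (30.9, 21.6 to 42.8, and 18.5, 11.6 to 28), Cyp2c38 (54 and 46.2), Cyp2c68 (42 and 36.2) and Cyp2c70 (66.1 and 87.4) overlapped. Past the gene bodies, a Cyp2c70 peak at +41466 bp held 6.01 and 23.5 and a Cyp2c50 peak at +26921 bp held 3.43 and 11.8 per 10000000.

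**Figure D3:**
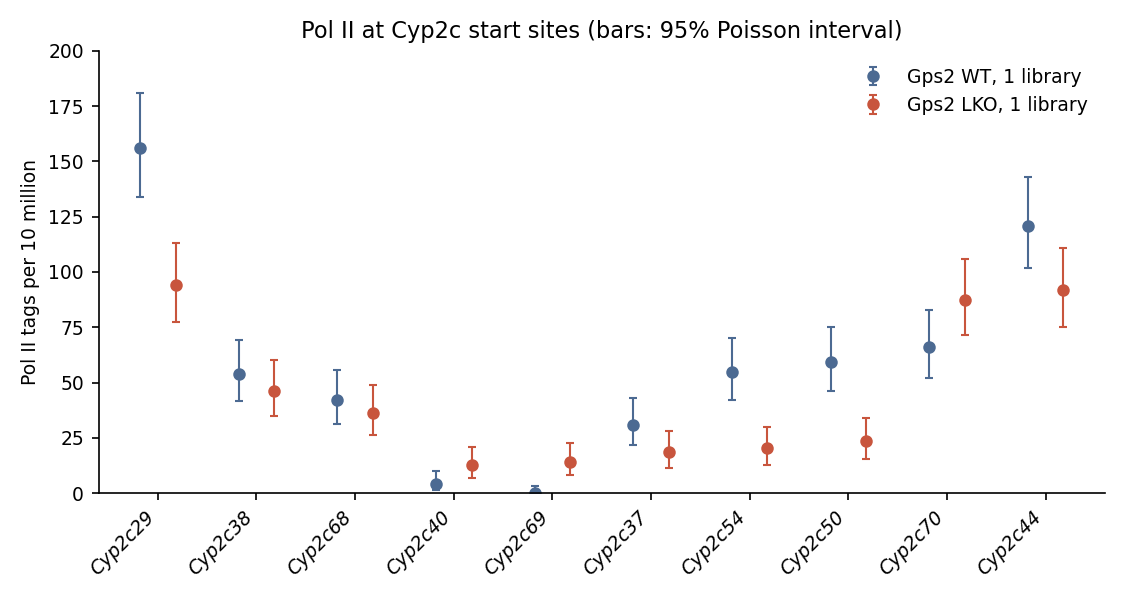
Pol II tags per 10000000 at the start site peak of each gene in 1 WT and 1 Gps2 LKO library; bars are exact 95% Poisson intervals. Cyp2c54 and Cyp2c50 lie lower in LKO, and Cyp2c40 and Cyp2c69 rise from near 0 to 12.6 and 14.3.

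GPS2 itself was found at 28 peaks of the 10 genes in WT liver of the Gps2 line (1 library per group). In LKO 23 of them were at least 2-fold lower and 0 higher, beside 99.6% lower and 0.112% higher of 44534 peaks, and the other 5 had under 10 tags. The peaks with the most tags were not those of the genes with the widest mRNA difference. They were a Cyp2c70 peak at -39673 bp with 58 tags in WT and 0 in LKO (at least 18.5-fold lower) and a Cyp2c44 intron peak at +7501 bp with 52 and 3. Next came Cyp2c70 peaks at -33814 bp with 36 and 2 and at -38601 bp with 29 and 1. The Cyp2c70 start site with 22 and 0 and a Cyp2c29 peak at +60143 bp with 20 and 0 followed. Near Cyp2c40, 1 GPS2 peak at -8296 bp held 10 tags in WT and 0 in LKO.

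NCOR occupancy in Gps2 LKO liver passed the test at 0 of 64 peaks in either direction, beside 0.0124% of 80813 peaks higher and 0.00495% lower (2.79% had an unadjusted p below 0.05). At the Cyp2c29 promoter NCOR was 35.7, 37.2 and 15.7 in WT and 44.1, 58.1 and 18.4 per 10000000 in LKO libraries (log2 fold change 0.44). The Cyp2c54 promoter held 63.3, 58.6 and 49.3 against 63.8, 71.4 and 36.3 (0), and the Cyp2c70 promoter 51.5, 49.8 and 26.1 against 39.9, 54.5 and 26 (-0.08). At Cyp2c40 the values were 9.49, 8.76 and 4.06 against 13.1, 17.5 and 4.34 (0.64). The third library was the lowest of its group at each of these promoters, and these libraries had 8.26% and 7.33% of tags in peaks, against 11.3% to 14.7% in the others. At all 10 promoters the groups overlapped, with log2 fold changes of -0.5 to 0.71.

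PPARα occupancy in Gps2 LKO liver was higher at 26 of 72 peaks of the 10 genes (36.1%) and lower at 0, beside 21.5% higher and 0.147% lower of 102519 peaks. Over all peaks the median log2 fold change was 0.62, since 28.9% to 32.1% of LKO tags but 19.2% to 21.9% of WT tags lay in peaks, and the median of the 72 was 0.88. The 3 WT libraries differed from each other by less than the sampling noise (chi-square per degree of freedom 0.957) and were counted as 1 sample against 3 LKO libraries, so the spread behind these p-values is that of the LKO libraries alone. With the WT libraries as 3 samples 39 of the 72 peaks were called higher and 0 lower, beside 36.6% and 0.3% of all peaks, and the Cyp2c69 promoter then passed the test (0.96, edgeR adjusted p = 0.0356). With TMM scaling, which sets the median shift to 0.02, 3 peaks of the 10 genes were called, and these lie at Cyp2c40 and Cyp2c29. Without the third LKO library 11 peaks of the 10 genes were called, and without the first WT library 17.

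These were a Cyp2c40 intron peak at +1008 bp, a Cyp2c40 intron peak at +4125 bp and a Cyp2c29 peak at -2488 bp, which the table annotates as intergenic and which lies within the long Cyp2c29 transcript. The first held 8.86, 2.85 and 2.25 in WT and 54, 45.5 and 32.2 per 10000000 in LKO libraries (log2 fold change 3.25, SE 0.406, edgeR adjusted p = 1.1e-11, and 2.65 with 5.27e-07 under TMM). The second held 1.27, 2.85 and 2.25 against 20.7, 18 and 14.1 (2.91, edgeR adjusted p = 3.46e-05, and 2.32 with 0.0112 under TMM). The third held 1.27, 0 and 2.25 against 17.2, 16.1 and 9.97 (3.56, edgeR adjusted p = 5.57e-05, and 2.98 with 0.00927 under TMM). At all 3 every LKO library lay above every WT library, and the WT values correspond to few tags. Of the 72 peaks 33 overlapped a PPARα peak of the 10 genes in the Ppara line, and the Cyp2c29 peak at -2488 bp was not among them. Whether the signal at these 3 sites needs the receptor is not shown here. All 4 PPARα peaks of Cyp2c40 were higher in LKO under scaling to total tags, as were 8 of 16 of Cyp2c29, 2 of 3 of Cyp2c68, 2 of 5 of Cyp2c37, 2 of 6 of Cyp2c69, 1 of 3 of Cyp2c54, 1 of 4 of Cyp2c38, 4 of 16 of Cyp2c70, 2 of 11 of Cyp2c44 and 0 of 4 of Cyp2c50.

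2 further peaks met the naming rule under scaling to total tags. An intergenic Cyp2c69 peak at -48839 bp held 8.86, 10.4 and 14.7 in WT and 48.3, 32.2 and 38.7 in LKO libraries (1.79, edgeR adjusted p = 3.3e-05, and 1.18 with 0.0516 under TMM). A Cyp2c70 intron peak at +5745 bp held 1.27, 0.95 and 0 against 4.6, 5.68 and 9.38 (3.11, edgeR adjusted p = 0.027, and 0.349 under TMM), from few tags. In both the groups did not overlap, and neither passed the test under TMM.

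Of the 10 promoters 4 had more PPARα in LKO under scaling to total tags. Cyp2c29 held 8.86, 29.4 and 18 against 42.5, 52.1 and 39.3 (1.16, edgeR adjusted p = 0.00302), Cyp2c37 held 16.5, 15.2 and 11.3 against 44.8, 28.4 and 26.4 (1.16, edgeR adjusted p = 0.00719), and Cyp2c40 held 6.33, 9.5 and 5.64 against 21.8, 14.2 and 17.6 (1.26, edgeR adjusted p = 0.02). Cyp2c70 held 25.3, 36.1 and 27.1 against 69, 61.6 and 48.7 (0.96, edgeR adjusted p = 0.00628). These promoter calls were all lost under TMM. The promoters of Cyp2c69 (0.96), Cyp2c38 (0.65), Cyp2c68 (0.58), Cyp2c50 (0.44), Cyp2c54 (0.28) and Cyp2c44 (0.15) did not pass the test.

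**Figure D4:**
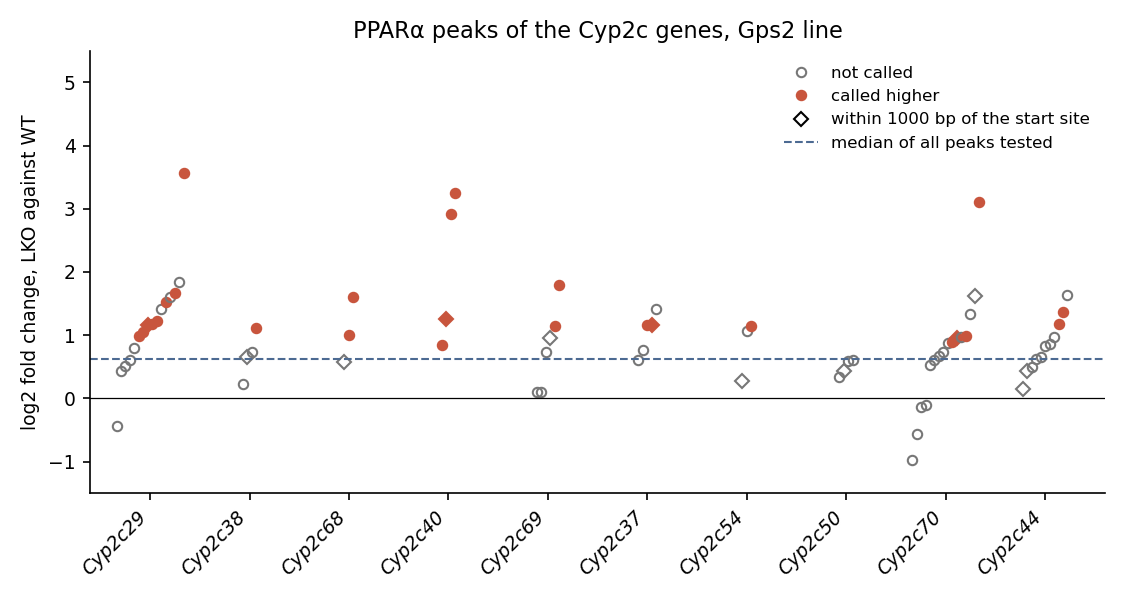
Log2 fold change of PPARα tags (LKO against WT, scaled to total tags) at each of the 72 peaks, by gene and sorted by value within a gene; filled points are called higher, diamonds lie within 1000 bp of the start site and the dashed line is the median of all peaks, 0.62. 2 peaks of Cyp2c40 and 1 peak of Cyp2c29 reach 2.91 to 3.56, and 1 of Cyp2c70 with few tags reaches 3.11.

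The sequences of 4 of these sites are shown, in mm9, each on the strand of its gene and with any AGGTCA in capitals. Cyp2c70 -39688 (chr19:40301375-40301553) is shown as the site with the most GPS2 tags. Cyp2c40 +1008 (chr19:39886211-39886381), Cyp2c69 -48839 (chr19:40010001-40010196) and Cyp2c29 -2488 (chr19:39359010-39359164) are shown as sites with more PPARα in LKO.
Cyp2c70 -39688: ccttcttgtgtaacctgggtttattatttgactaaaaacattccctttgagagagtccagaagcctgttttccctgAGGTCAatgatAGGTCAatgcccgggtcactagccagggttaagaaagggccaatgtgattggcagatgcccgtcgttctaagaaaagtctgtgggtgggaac
Cyp2c40 +1008: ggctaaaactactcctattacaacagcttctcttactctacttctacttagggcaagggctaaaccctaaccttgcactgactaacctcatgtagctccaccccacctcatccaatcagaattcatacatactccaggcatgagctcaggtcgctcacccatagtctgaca
Cyp2c69 -48839: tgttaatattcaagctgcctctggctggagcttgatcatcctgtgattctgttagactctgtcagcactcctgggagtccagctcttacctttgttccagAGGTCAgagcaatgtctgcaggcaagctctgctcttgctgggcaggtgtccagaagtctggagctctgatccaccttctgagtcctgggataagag
Cyp2c29 -2488: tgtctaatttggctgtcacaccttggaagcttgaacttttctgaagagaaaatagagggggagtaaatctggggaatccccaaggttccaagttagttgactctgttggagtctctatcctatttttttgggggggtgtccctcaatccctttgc

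The Cyp2c70 sequence holds 2 AGGTCA half-sites, that of Cyp2c69 holds 1, and the Cyp2c40 and Cyp2c29 sequences hold 0. The Cyp2c40 sequence is 95.3% identical over 171 aligned positions to a stretch near Cyp2c69, so tags of the 2 copies may have been assigned to either. That of Cyp2c69 is 89.8% identical over 196 aligned positions to a stretch near Cyp2c70, so the same limit may apply to it. In 200 bases at the peak centre, AGGTCA was in 26 of the 72 peaks and in 14 of the 26 higher ones, beside 31.8% of 102417 PPARα peaks. The direct repeats DR1 and DR4 are 2 AGGNCA half-sites spaced by 1 and by 4 bases. DR1 was in 1 of the 72 and 0 of the 26, beside 2.28% of all, and DR4 was in 0 of the 72, beside 0.574%. TTCNNNGAA was in 11 of the 72 and 4 of the 26, beside 6.49% of all.

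Of the 72 PPARα peaks, 11 overlapped by at least 1 bp a peak of the 10 genes in all 7 other tables of GPS2, NCOR and PPARα. These shared sites lie at Cyp2c70 (-75, -33797 and -39688 bp), Cyp2c37 (-87 and -2751 bp), Cyp2c69 (-25667 and -37011 bp), Cyp2c29 (+60202 bp), Cyp2c54 (-50 bp), Cyp2c50 (-1096 bp) and Cyp2c44 (+7467 bp), and none is at Cyp2c40, Cyp2c38 or Cyp2c68. The Cyp2c70 site at -39688 bp, which was picked after its values were seen, held 77.2, 64.6 and 71 PPARα tags per 10000000 in WT and 114, 97.6 and 95.6 in Gps2 LKO libraries (0.53, edgeR adjusted p = 0.0938). NCOR there was 66, 56.9 and 38.8 against 50.2, 61.7 and 29.3 (-0.2). In the Ppara line NCOR there was 115, 78.3 and 96.9 in WT and 110, 70 and 84.7 in KO libraries (-0.14, edgeR adjusted p = 0.754). NCOR at this site thus overlapped between groups in both lines.

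In Ppara KO liver, PPARα antibody signal was lower at 4 of 36 peaks of the 10 genes (11.1%) and higher at 0, beside 27.6% lower and 0.0174% higher of 40241 peaks, with a median log2 fold change of -1.04 against -1.68 over all peaks. The Cyp2c70 site at -39685 bp held 12 and 16.1 per 10000000 in WT and 1.37 and 3.66 in KO libraries (-2.45, edgeR adjusted p = 0.00311). The Cyp2c44 intron site at +7472 bp held 15.6 and 11.5 against 5.49 and 2.93 (-1.66, edgeR adjusted p = 0.0158), and the Cyp2c29 site at +60175 bp held 9.2 and 5.35 against 0.687 and 2.2 (-2.29, edgeR adjusted p = 0.0488). A Cyp2c70 peak at -3635 bp held 6 and 12 tags in WT and 0 in both KO libraries, at least 6.31-fold lower against a floor of 3 tags over the group (edgeR adjusted p = 0.0058). The groups did not overlap at these 4 sites. Without either WT library, and under TMM scaling, 0 of the 36 were called. The 4 called peaks belong to Cyp2c70, Cyp2c44 and Cyp2c29. Of the 10 promoters 5 had a peak in this comparison, with log2 fold changes of -2.25 to -0.61, and 0 passed the test. They included the promoters of Cyp2c29 (-0.87), Cyp2c37 (-1.12) and Cyp2c70 (-2.25), described above for PPARα in the Gps2 line.

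NCOR in Ppara KO liver was higher at 0 and lower at 1 of 77 peaks (beside 0.136% higher and 2.51% lower of 115042 peaks), a Cyp2c29 peak at +26099 bp with 6.5, 9.46 and 16.9 in WT and 6.54, 1.35 and 1.42 in KO libraries, whose groups overlapped (-1.85, edgeR adjusted p = 0.0239). That count was 0 under TMM scaling and 0 to 3 when 1 library was left out. At the 10 promoters the log2 fold changes of NCOR were all negative, -1.04 to -0.13, and none passed the test, while the median over all peaks was -0.32. The Cyp2c69 promoter held 19.5, 19.8 and 30.3 against 13.1, 8.75 and 12.1 (-1.04, edgeR adjusted p = 0.106), and the Cyp2c40 promoter 21.9, 18.1 and 30.3 against 15.5, 14.1 and 10.7 (-0.8, edgeR adjusted p = 0.244). The groups did not overlap at these promoters and at others, 6 of the 10 in all. Nothing is read from that count, since the share of all peaks without overlap is not given here. Under TMM scaling the promoter values ran from -0.72 at Cyp2c69 to 0.19 at Cyp2c70.

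GPS2 in Ppara KO liver passed the test at 0 of 19 peaks, beside 0.273% lower of 27842 peaks (23% had an unadjusted p below 0.05), and with 1.07% to 4.39% of tags in peaks these libraries had little signal. The Cyp2c70 start site held 23.6, 21.5 and 21.5 in WT and 11.7, 11.3 and 4.33 in KO libraries (-1.28, edgeR adjusted p = 0.186). The Cyp2c37 promoter held 7.63, 4.55 and 21.5 against 2.91, 4.54 and 2.88 (-1.67, edgeR adjusted p = 0.159). The groups did not overlap at these promoters or at Cyp2c54 (-0.97), but they did at Cyp2c50 (-0.01) and Cyp2c68 (0.14). Under TMM scaling the promoter values ran from -0.65 at Cyp2c37 to 1 at Cyp2c68. The median of the 19 was -1.24 and that of all peaks -0.93.

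In Ncor LKO liver, GPS2 passed the test at 0 of 33 peaks, beside 0.0338% lower of 56278 peaks (34.3% had an unadjusted p below 0.05), with a median log2 fold change of -1.3 for the 33 and -1.12 for all. The third WT library had 3.07% of tags in peaks against 7.82% and 8.23% in the other WT libraries, close to the 2.45% to 3.15% of the LKO libraries, and without it 19 of the 33 were called lower. The Cyp2c70 promoter held 26, 18.3 and 9.11 in WT and 3.94, 7.68 and 3.12 in LKO libraries (-1.85, edgeR adjusted p = 0.0801). The Cyp2c37 promoter held 12.7, 14.1 and 3.22 against 2.46, 3.54 and 1.56 (-1.95, edgeR adjusted p = 0.0826). In both genes the third WT library was the lowest of its group. GPS2 at the promoters of Cyp2c54 (-1.53), Cyp2c44 (-1.3), Cyp2c29 (-0.82), Cyp2c68 (-0.8) and Cyp2c69 (0.27) did not pass the test either. Under TMM scaling the promoter values ran from -0.82 at Cyp2c37 to 1.33 at Cyp2c69. PPARα in Ncor LKO liver passed the test at 0 of 64 peaks, beside 0.151% higher and 0.0453% lower of 86168 peaks (5.23% had an unadjusted p below 0.05), with promoter log2 fold changes of -0.14 to 1.02. At the Cyp2c38 promoter PPARα was 11.1, 11.7 and 5.23 against 12, 12.3 and 21.9 (0.72), the only promoter whose groups did not overlap.

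H3K27ac rose at 6 of 57 peaks of the Cyp2c genes in Ncor LKO liver (10.5%, beside 2.32% of 68817 peaks higher and 0.801% lower) and at 0 in Smrt LKO liver. The 6 lie at Cyp2c38, Cyp2c68, Cyp2c29 and Cyp2c70. At the start site peaks the log2 fold change was positive for 10 of 10 genes in the Ncor line (0.04 to 1.14) and for 0 of 10 in the Smrt line (-0.31 to -0.04). In the Ncor line 3 of the 10 were called and 4 had groups without overlap. Nothing is read from the 4, since the share of all peaks without overlap is not given here. The median over all peaks was 0 in the Ncor and 0.01 in the Smrt line. The start site peaks of Cyp2c40, Cyp2c69 and Cyp2c44 were taken up after their values were seen.

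At the Cyp2c38 start site peak (chr19:39534251-39539773) H3K27ac was 107, 101 and 119 in WT and 218, 239 and 264 per 10000000 in Ncor LKO libraries (1.14, SE 0.122, edgeR adjusted p = 0.00277), and this call held in all 11 alternatives. A second Cyp2c38 peak at +6109 bp held 10.3, 7.91 and 7.38 against 16.1, 24.6 and 26.7 (1.4, edgeR adjusted p = 0.0155). At Cyp2c68 (chr19:39811837-39821162) the values were 75.8, 73.1 and 99.1 against 145, 167 and 125 (0.82, edgeR adjusted p = 0.025). The LKO libraries lay above the WT libraries at each of these peaks. The Cyp2c68 peak at -10013 bp held 32.3, 29 and 45.2 against 67.6, 103 and 58.8 (1.1, edgeR adjusted p = 0.0359). The Cyp2c70 peak at -36416 bp, a wide region over the site of GPS2, NCOR and PPARα printed above, held 400, 419 and 380 against 583, 901 and 578 (0.78, edgeR adjusted p = 0.0301), and the Cyp2c29 promoter held 297, 306 and 267 against 356, 461 and 419 (0.51, edgeR adjusted p = 0.0472). Groups did not overlap at these 3 peaks either. Without the first, the second or the third WT library 2, 1 and 2 of the peaks of the 10 genes were called, and the start site peak of Cyp2c38 was among them each time. In the Gps2 line the matching Cyp2c70 region, a peak at -36322 bp, held 618 and 479 H3K27ac tags in WT and 897 and 503 in LKO libraries. Its groups overlapped (0.35, edgeR adjusted p = 0.579).

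Cyp2c40 and Cyp2c69 did not pass the test in the Ncor line. The Cyp2c40 start site peak (chr19:39881600-39888607) held 5.3, 2.88 and 6.26 in WT and 5.2, 12 and 4.34 in LKO libraries (0.55, edgeR adjusted p = 0.623), and that of Cyp2c69 (chr19:39955314-39962482) held 4.77, 2.64 and 5.82 against 3.84, 8.54 and 4.55 (0.34, edgeR adjusted p = 0.771). In both the second LKO library alone lay above the WT range. The promoters of Cyp2c37 (0.57), Cyp2c54 (0.56), Cyp2c50 (0.53) and Cyp2c70 (0.13) and the start site peak of Cyp2c44 (0.04) did not pass the test.

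In Smrt LKO liver 0 of the 57 peaks passed the test, as did 0% of 68800 peaks (5.93% had an unadjusted p below 0.05), with a median log2 fold change of -0.22 for the 57 and 0.01 for all. The Cyp2c29 promoter held 537, 498 and 617 in WT and 412, 647 and 474 in LKO libraries (-0.11), and the Cyp2c38 start site 414, 522 and 521 against 400, 445 and 451 (-0.17). The Cyp2c40 start site held 388, 331 and 312 against 248, 318 and 299 (-0.25, edgeR adjusted p = 0.836). Groups overlapped at all 10 start sites.

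The difference between the 2 lines in the LKO effect was tested with an interaction term, which called 0.33% of 68818 peaks more positive and 0.0959% more negative in the Ncor line. It was more positive at 2 peaks of the Cyp2c genes. At the Cyp2c38 start site the effects differed by 1.31 on the log2 scale (SE 0.161, edgeR adjusted p = 0.00832), and at the Cyp2c70 peak at -36416 bp by 1.28 (SE 0.255, edgeR adjusted p = 0.0479), a call that was lost in 13 of 17 alternatives. At Cyp2c68 the difference was 0.85 (edgeR adjusted p = 0.0575).

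The WT groups of the 2 lines were compared after their values had been seen. In Smrt WT liver 37 of the 57 peaks were higher than in Ncor WT liver (64.9%, beside 13.1% of 68818 peaks) and 6 lower (10.5%, beside 9.53%), with a median log2 difference of 1.79 against 0.07 over all peaks. All 6 peaks of Cyp2c40, all 9 of Cyp2c69, all 6 of Cyp2c68 and all 3 of Cyp2c38 were higher. The Cyp2c40 start site held 5.3, 2.88 and 6.26 in Ncor WT and 388, 331 and 312 in Smrt WT libraries (6.14, SE 0.214, edgeR adjusted p = 1.58e-06), and that of Cyp2c69 held 4.77, 2.64 and 5.82 against 371, 249 and 286 (6.08, edgeR adjusted p = 3.83e-06). Upstream peaks followed, with 0.795, 2.4 and 3.35 against 103, 113 and 93.1 at Cyp2c40 -8889 bp (5.5, edgeR adjusted p = 9.16e-06) and 0.795, 1.44 and 1.57 against 105, 75.6 and 67.1 at Cyp2c69 -24589 bp (5.97, edgeR adjusted p = 7.04e-06). In these 4 peaks every Smrt WT library lay far above every Ncor WT library. A Cyp2c69 intron peak at +24193 bp held 0 tags in all 3 Ncor WT libraries and 1.75, 3.19 and 1.43 per 10000000 in Smrt WT libraries.

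The other start sites differed by less. The log2 difference was 2.29 at Cyp2c68, 2.16 at Cyp2c38, 2.13 at Cyp2c37, 1.21 at Cyp2c50, 1.06 at Cyp2c54, 0.92 at Cyp2c29 and 0.32 at Cyp2c44 (edgeR adjusted p = 0.0396, lost in 8 of 10 alternatives), and it did not pass at Cyp2c70 (0.25, edgeR adjusted p = 0.0621). The 4 H3K27ac peaks of female-biased genes outside Cyp2c summed to 99.6 to 258 per 10000000 in Ncor WT and 874 to 916 in Smrt WT libraries, and the 5 of male-biased genes to 3880 to 4480 and 763 to 1050. Line and sex-linked signal cannot be told apart in this comparison.

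**Figure D5:**
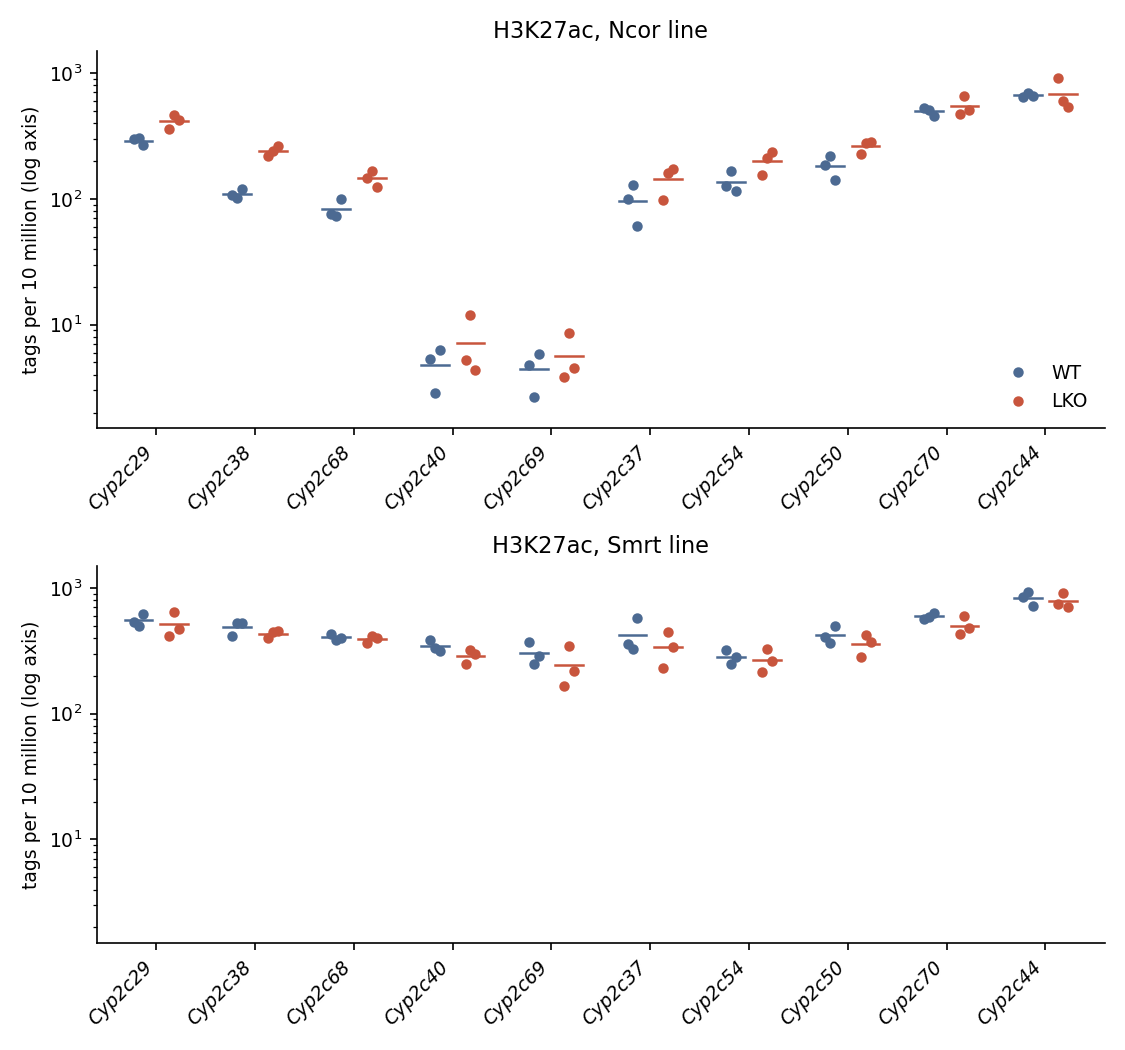
H3K27ac at the start site peak of each gene in the Ncor line (top) and the Smrt line (bottom), in tags per 10000000 on a log axis; each point is a library and lines are means of 3 libraries. Cyp2c40 and Cyp2c69 lie between 2.64 and 12 in the Ncor line and between 166 and 388 in the Smrt line, and LKO lies above WT without overlap at Cyp2c38, Cyp2c68, Cyp2c29 and Cyp2c50 in the Ncor line.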

How the data were processed

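Liver RNA-seq and ChIP-seq libraries were grouped by their labels. For RNA-seq, gene-wise read counts were deposited by the authors without normalization. HISAT2, SAMtools and featureCounts stand in the labels' processing notes and the gene positions in the file are those of mm10, whereas the methods name mm9 and HOMER, so which counter made the table is open. The ChIP-seq tables hold raw tag counts per peak, deposited by the authors, who aligned reads to mm9 with Bowtie and counted tags with HOMER, and library totals were read from the file headers. The deposited peak lists hold a constant score per peak made by the authors, and their positions alone were used. Deposited columns of the authors' own fold changes, p-values and calls were not used. Settings of peak calling: not given in the sources used here.

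Counts were tested with the quasi-likelihood test of edgeR 4.0.16 in R 4.3.3, across all genes or peaks, with Benjamini-Hochberg adjustment and a threshold of 0.05. RNA-seq used TMM scaling and the filterByExpr filter. ChIP-seq used the total tags of each library and peaks with at least 1 tag. Values of peaks are tags per 10000000, and the printed CPM are TMM-normalised. Histone marks of the Gps2 line were tested only in peaks that at least 2 of the mark's 4 peak lists hold. Comparisons of 1 against 1 library had no test, and a peak counted as changed at 2-fold with at least 10 tags. Alternatives were TMM and RLE scaling, other filters, DESeq2 1.42.0, the replicate number as a block, peaks within 10000 bp, and leaving out each library. The fits were tested on simulated counts. Sequences and motifs were read with Python and Biopython. The figures were drawn with matplotlib.

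All 10 genes are named in RNA-seq. For each ChIP-seq table the peak within 1000 bp of the start site and up to 5 called peaks without overlap between groups, by size of the log2 fold change, are named (by tags where groups have 1 library). The 5 most similar genes and up to 6 called genes of each list (3 rises and 3 falls) are also named, and others are marked as picked after their values were seen. Some genes that these rules name are not reported here. The genes, the gene lists and the marker lists were chosen with earlier results of these data known. The methods call all replicates biological, while no label ties a library to an animal and immunoprecipitations were pooled, so p-values measure the spread between these libraries.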

Additional observations from a re-analysis of the deposited data

Results flagged for a closer look

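The effect of the LKO on H3K27ac differed between the Ncor and the Smrt line at 2 peaks of the Cyp2c genes by the test of the difference itself. At the Cyp2c38 start site the log2 fold change was 1.14 in the Ncor line and -0.17 in the Smrt line, a difference of 1.31 (SE 0.161, edgeR adjusted p = 0.00832, at most 0.036 over 17 alternatives). At the Cyp2c70 peak at -36416 bp the log2 fold change was 0.78 in the Ncor line and -0.5, not called, in the Smrt line. The difference there was 1.28 (SE 0.255, edgeR adjusted p = 0.0479, up to 0.131 over the alternatives). The Smrt-line libraries held 0 tags on Y-chromosome peaks, so line and sex-linked signal cannot be told apart. The part of that in either difference was not tested. In 24 groups of 4 RNA-seq values, 0 had a library far from the other 3.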

How the results depend on the processing

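Under the alternatives 292 counts of called Cyp2c genes or peaks stayed within 1.5 times the main count and 66 did not, and 0 called values changed sign. The causes were not tested. RNA-seq: 6 of 10 genes when a log2 fold change of 1 or more was required. H3K27ac in the Gps2 line: 5 of 8 higher under TMM or RLE scaling. H3K4me3: 2 of 5 when all peaks of the shared table entered. H3K27ac in the Ncor line: 1 lower with filterByExpr or DESeq2 (0 in the main test). PPARα in the Gps2 line: 3 under TMM, 4 under RLE, 1 with DESeq2 and 17 within 10000 bp (26). GPS2 in the Ncor line: 1 higher under TMM or RLE (0). NCOR in the Ppara line: 0 lower under TMM, RLE, filterByExpr, DESeq2 or within 10000 bp (1). PPARα in the Ppara line: 0 under TMM, RLE or DESeq2 and 2 within 10000 bp (4). GPS2 in the Gps2 line, scaled to tags in peaks: 3 higher and 14 lower (0 and 23), and 6 lower at 20 tags or more. Pol II: 10 lower at 1.5-fold (6), and 3 higher and 3 lower at 20 tags or more. Smrt WT against Ncor WT: 15 higher and 0 lower within 10000 bp (37 and 6). Interaction: 1 under TMM or RLE and 6 with DESeq2 (2).

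With the replicate number as a block, 2 peaks were higher for H3K27ac in the Ncor line, 9 lower for GPS2 in the Ncor line, 0 lower for PPARα in the Ppara line and 1 differed in the interaction. RNA-seq kept a count of 10, and the block moved no other count by over 1.5 times. Same-numbered libraries share only a number here, since with 3 or more pairs no comparison had every correlation of same-numbered deviations above 0.1 (with 2 pairs 0.177 for H3K27ac and 0.24 for H3K4me3 of the Gps2 line). In RNA-seq 2 of 4 libraries correlated best with their own number.

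Leaving out 1 library at a time gave 10 genes in RNA-seq, 0 to 12 higher and 0 to 1 lower peaks for H3K27ac in the Gps2 line (0 without either WT library, 1 lower without the first LKO library), and 3 to 7 for H3K4me3 (3 without the second WT library). It gave 1 to 9 higher for H3K27ac in the Ncor line (2, 1 and 2 without the first, the second and the third WT library) and 0 to 1 lower (1 without the second LKO library). PPARα in the Gps2 line ran from 11 (without the third LKO library; 17 without the first WT library) to 26. GPS2 in the Ncor line ran from 0 to 1 higher and 0 to 19 lower (19 without the third WT library), and PPARα in the Ncor line from 0 to 1 lower (1 without the third WT library). NCOR in the Ppara line ran from 0 to 3 (3 without the second WT, 2 without the first KO, 0 without the third WT or the second or the third KO library), and PPARα in the Ppara line from 0 to 5 (0 without either WT, 2 without the second KO library). Smrt WT against Ncor WT gave 31 to 36 higher and 5 to 6 lower, and the interaction 1 to 2 (1 without any library other than the third Ncor WT, the second Ncor LKO and the second Smrt LKO). The alternatives of the comparison of WT groups, and leaving out the third libraries of NCOR in the Gps2 line together, were chosen after seeing the data. Shallow ChIP-seq limits the values near 0, where few tags stand behind a fold.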
